A study of Homo sapiens with 5 samples.

Results

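The core glycolytic enzyme genes were 10 genes chosen by name: HK1, HK2, GPI, PFKL, ALDOA, GAPDH, PGK1, ENO1, PKM and LDHA, out of 19866 protein-coding genes placed on the chromosomes. Each was described by the FOXO3A peak nearest to its start or end and by the peaks inside its span. The peaks came from CUT&Tag, in which an antibody guides a transposase to chromatin so that DNA around the bound protein is cut and tagged. The antibody was against FOXO3A in all 5 libraries, 3 from THP-1 and 2 from U-937, both established human lines with monocytic features that the labels class as acute myeloid leukemia; the labels name no treatment or genetic change. No control library was used here. The authors deposited 1282 peaks for THP-1 replicate 1 and 2272 for U-937 replicate 1, while the lists of U-937 replicate 2 and of the other 2 THP-1 libraries held 0. Every value below therefore rests on 1 library a line, has no replicate check and was not tested. The read depth is unknown, and fewer peaks in one list cannot be told apart from a shallower or less enriched library.

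Glycolysis turns glucose into pyruvate in the cytosol, first spending ATP to trap and split the sugar and then recovering ATP and NADH. Hexokinases, phosphofructokinase and pyruvate kinase catalyse its practically irreversible steps, and lactate dehydrogenase regenerates the NAD+ that keeps it running. Leukemia cells, like many proliferating cells, use the pathway heavily, and FOXO factors, which AKT holds out of the nucleus when growth signals are strong, are known as regulators of glucose metabolism in several tissues.

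In U-937, 3 of the 10 genes had a peak summit within 1000 bp of the gene's start or end, called a boundary peak here: GPI, GAPDH and ENO1. The same window caught 7.02% of all protein-coding genes in that list, 1395 of 19866. ALDOA lay just outside it, with a summit 1301 bp inside the gene but 180 bp before another annotated start. Counting every annotated start as well as both ends, 4 of 10 were called against 7.58% of protein-coding genes. In THP-1 no member had a boundary peak, where 0.221% of protein-coding genes had one, and GPI alone held a THP-1 peak inside its span, as 1.09% of protein-coding genes did in the span or within 1000 bp. With an expected rate that low, 0 of 10 says little about these genes. The U-937 count followed the rule: it was 3 within 500 bp (6.23% of all genes), 4 within 3000 bp (8.22%) and 4 within 10000 bp (11.3%). It was 3 for any base of the peak within 1000 bp (7.17%), 3 for the gene start only (7.25%) and 4 for the span or 1000 bp around it (9.98%). Among peaks with a -log10 q of at least 5 it was 1, ENO1 (3.93%). The 10 genes were chosen with earlier results of these data known, so the counts are a description of these genes.

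ENO1 and ALDOA were the members whose U-937 peak touched a promoter window of the RefSeq table, which reaches from 250 bases before an annotated start to 50 after it. The windows are printed because they are the glycolytic promoter sequences that lay under a peak. They are given 5′ to 3′ along each gene, from GRCh38.p14, with the bases under the U-937 peak in capitals. The ENO1 window is chr1:8878637-8878936 on the minus strand and the ALDOA window chr16:30065510-30065809 on the plus strand.

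ENO1: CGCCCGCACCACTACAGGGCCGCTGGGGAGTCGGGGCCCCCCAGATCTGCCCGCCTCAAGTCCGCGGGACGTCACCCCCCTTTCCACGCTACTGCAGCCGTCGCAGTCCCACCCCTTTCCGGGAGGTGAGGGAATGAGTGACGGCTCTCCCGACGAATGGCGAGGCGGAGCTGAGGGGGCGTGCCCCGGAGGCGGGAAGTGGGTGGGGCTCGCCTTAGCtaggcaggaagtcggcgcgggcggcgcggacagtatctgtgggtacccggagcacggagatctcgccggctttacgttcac

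ALDOA: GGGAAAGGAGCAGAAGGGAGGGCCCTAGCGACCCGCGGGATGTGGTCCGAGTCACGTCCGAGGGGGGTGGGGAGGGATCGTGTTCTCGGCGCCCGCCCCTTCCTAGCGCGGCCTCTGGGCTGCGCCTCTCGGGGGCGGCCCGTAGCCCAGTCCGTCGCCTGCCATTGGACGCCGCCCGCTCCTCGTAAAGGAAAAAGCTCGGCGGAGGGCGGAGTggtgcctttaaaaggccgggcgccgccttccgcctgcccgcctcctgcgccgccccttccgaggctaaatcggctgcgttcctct

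The peak covered the first 219 bases of the ENO1 window and the first 215 of the ALDOA window, in both cases stopping before the annotated start. Of all 15843 protein-coding genes with a window, 6.93% had one touched by a U-937 peak. The capitals were 71.2% G and C in both genes, and the whole windows 69.7% in ENO1 and 70.7% in ALDOA. The median over all 35116 windows was 58.7%, and over the 1482 windows that a U-937 peak touched it was 64.3%. Both windows were also rich in CG pairs, with 32 in ENO1 and 35 in ALDOA against a median of 14 over all windows and 26 under U-937 peaks.

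The first step, phosphorylation of glucose, had no peak at either hexokinase gene. HK1, the hexokinase of most tissues, spans chromosome 10 from 69270000 to 69401882. Its nearest U-937 summit was 70957 bp past its end, within TSPAN15, with a fold enrichment of 4.13 and a -log10 q of 1.92, rank 1980 of 2272. The nearest THP-1 summit was 26101 kb away, within CSGALNACT2. HK2, the inducible hexokinase often raised in tumours, spans chromosome 2 from 74834127 to 74893359. Its nearest U-937 summit lay 304 kb upstream, in a stronger peak (fold 9.04, -log10 q 9.57, rank 262) that was 174 bp from a boundary of AUP1 and also within 1000 bp of HTRA2. In THP-1 the nearest summit was 3216 kb upstream, within DYSF. HK2 was thus no closer to a peak than most genes, as 57.0% of protein-coding genes had a nearer U-937 summit and 57.2% a nearer THP-1 summit.

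GPI, glucose-6-phosphate isomerase, was the one member with a peak at or in the gene in both lines, and the peaks were at different places. It spans chromosome 19 from 34359718 to 34402413. The U-937 peak, at 34359192 to 34359447, had its summit 380 bp upstream of the first base of the gene, with a fold enrichment of 5.73 and a -log10 q of 4.19. That placed it at rank 1334 of 2272, below the list's median fold of 6.16 and median -log10 q of 4.79. The THP-1 peak, at 34391328 to 34392657, was 1330 bp wide and lay 32298 bp into the gene, 75.6% of the way from its start. Within its own list the THP-1 peak was strong, with a fold of 12.8, a -log10 q of 57.8 and rank 191 of 1282, against medians of 6.57 and 13.3 over the THP-1 peaks on chromosomes. Its summit was 10397 bp from the end of the gene and 27024 bp from the annotated start in the promoter table. Exons were not annotated in the gene table used here, so whether this peak is exonic or intronic is not given.

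**Figure D1:**
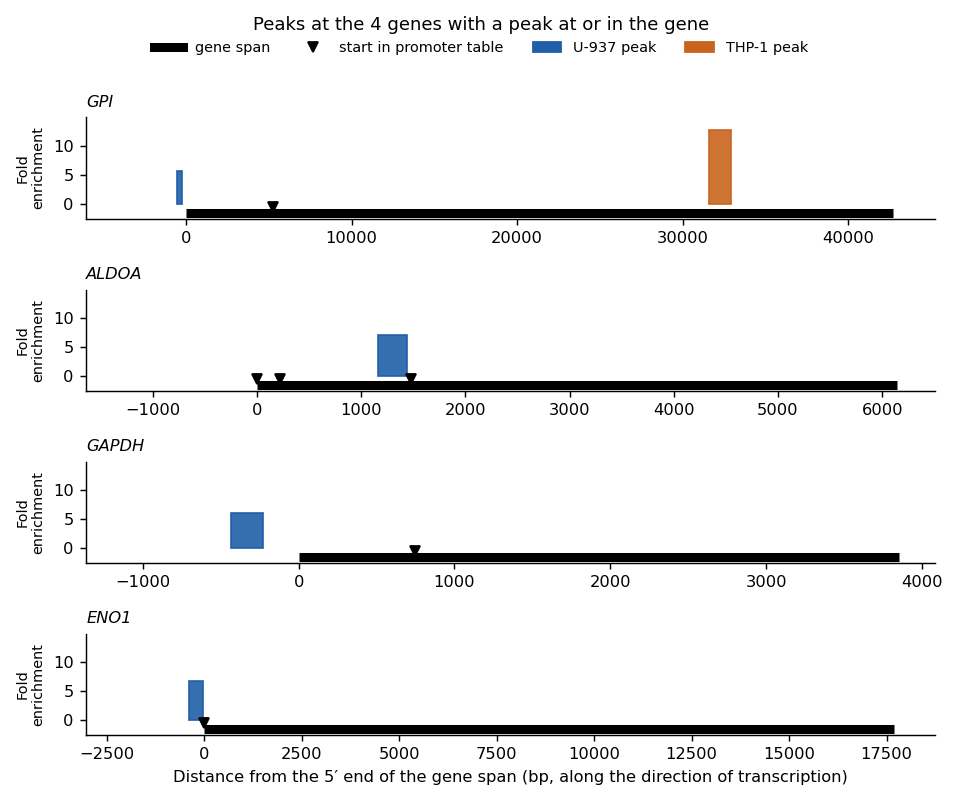
Peaks at GPI, ALDOA, GAPDH and ENO1, drawn along each gene from the 5′ end of its span (x axis, bp; each panel has its own scale). Black bars are gene spans, triangles the annotated starts of the promoter table, and boxes the peaks, whose height is the authors' fold enrichment (y axis); heights of U-937 (blue) and THP-1 (orange) boxes come from separate lists and are not comparable. The U-937 peaks sit at the 5′ side of all 4 genes, and the THP-1 peak lies 32298 bp into GPI.

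PFKL, the liver-type subunit of phosphofructokinase, which commits the sugar to glycolysis, had no peak at the gene. It spans chromosome 21 from 44300053 to 44327373. Its nearest peaks in both lines lay downstream and within the same neighbour, TRPM2, which encodes a calcium-permeable channel. The U-937 summit was 33022 bp past the end of PFKL (fold 4.13, -log10 q 1.92) and the THP-1 summit 69298 bp past it (fold 10.6, -log10 q 37.1, rank 272 of 1282). The 2 peaks do not overlap, at 44360298 to 44360491 and 44395870 to 44396920. The weak U-937 peak had the same deposited fold and -log10 q as the one nearest to HK1, and both shared rank 1980.

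ALDOA, the aldolase that splits fructose bisphosphate, is compact and has 3 annotated starts within its span on chromosome 16, 30064279 to 30070420. They are at 30064279, 30064497 and 30065760. The U-937 peak at 30065445 to 30065724 stood before the last of these, with a summit 180 bp upstream of it. Its fold enrichment was 7.02 and its -log10 q 5.95, rank 760, the strongest of the 4 U-937 peaks at members. The same bases also lie within LOC112694756, a protein-coding gene model that overlaps ALDOA, so the peak cannot be assigned to 1 of them. In THP-1 the nearest summit was 18696 bp upstream, within TLCD3B (fold 7.49, -log10 q 9.87, rank 522). That distance was short for the sparse THP-1 list, as 1.75% of protein-coding genes had a nearer summit.

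GAPDH, which oxidises glyceraldehyde phosphate and makes NADH, opens the energy-yielding part of the pathway. It spans chromosome 12 from 6534517 to 6538371. The U-937 peak, at 6534081 to 6534286, had its summit 375 bp upstream of the gene. That summit lay inside GAPDH-DT, a long non-coding RNA gene spanning 6531916 to 6534407, so the peak cannot be assigned to GAPDH alone. The peak had a fold of 6.01 and a -log10 q of 4.57, rank 1198, near the middle of the list. The promoter table lists 1 start for GAPDH, at 6535264, and the summit was 1122 bp from that start, so the peak did not touch that window. In THP-1 the nearest summit was 1705 kb away, 15600 bp from FAM90A1.

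PGK1, phosphoglycerate kinase, which makes the first ATP of the pathway, was the member farthest from any U-937 peak. It spans chromosome X from 78104248 to 78129295. The nearest U-937 summit was 2681 kb downstream, 68 bp from a boundary of BRWD3 (fold 7.87, -log10 q 7.58, rank 503), and 94.9% of protein-coding genes had a nearer one. The nearest THP-1 summit was 6963 kb upstream, within MED12 (fold 9.03). No U-937 summit lay within 1 Mb of PGK1, whereas 82.3% of protein-coding genes had at least 1.

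ENO1, alpha-enolase, which forms phosphoenolpyruvate, had the closest peak of the 10. It runs on the minus strand of chromosome 1, from 8878686 down to 8861000. The U-937 peak, at 8878718 to 8879081, had its summit 174 bp upstream of the start, a fold of 6.84 and a -log10 q of 5.77, rank 838. The summit also lay inside ENO1-AS1, a long non-coding RNA gene spanning 8878835 to 8879885, so the peak cannot be assigned to 1 of them. In THP-1 the nearest summit was 559 kb away, past the 3′ end, in a peak of low rank (fold 4.31, -log10 q 2.13, rank 1102 of 1282).

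PKM, the pyruvate kinase gene that alternative splicing turns into the M1 and M2 enzymes, had no peak at the gene, spanning chromosome 15 from 72199029 to 72231591. It had the most crowded surroundings, with 4 U-937 summits within 100 kb. The nearest, 41168 bp upstream, was the strongest U-937 peak within 100 kb of any member (fold 11.4, -log10 q 14.4, rank 55 of 2272), and it stood 205 bp from a boundary of PARP6. A pair of others stood at MYO9A, 260 and 891 bp from its boundary, with folds of 8.24 and 5.70. The last, nearest to CELF6, was weak (fold 2.89). In THP-1 the nearest summit was 999 kb away, within THSD4.

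LDHA, the lactate dehydrogenase subunit that favours lactate formation, closed the order with its nearest U-937 summit 11056 bp upstream of the start. It spans chromosome 11 from 18394563 to 18408425. That peak, at 18383500 to 18383703, had a fold of 6.40 and a -log10 q of 5.14, rank 1023, and no other protein-coding boundary was nearer to it than that of LDHA. The nearest THP-1 summit was 16724 kb away, near KRTAP5-6. LDHB, the partner subunit that favours pyruvate, was closer, with a U-937 summit 26 bp inside its start (fold 5.03, -log10 q 3.23, rank 1640).

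**Figure D2:**
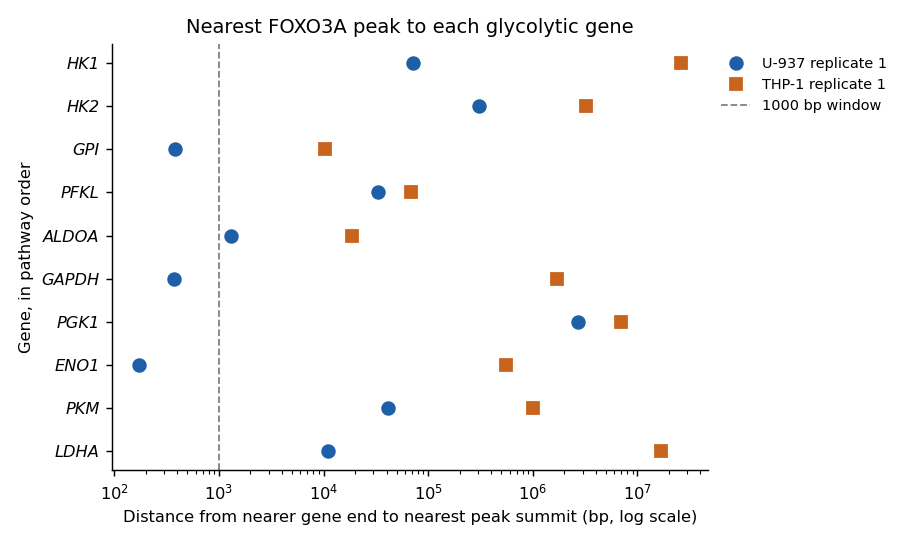
Distance from each gene's nearer end to the nearest peak summit (x axis, bp, log scale) for the 10 genes in pathway order (y axis), U-937 replicate 1 as circles and THP-1 replicate 1 as squares; the dashed line marks the 1000 bp window. GPI, GAPDH and ENO1 lie inside the window in U-937, ALDOA lies just past it at 1301 bp, and no THP-1 point is nearer than 10397 bp.

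Across the members, the nearest U-937 summit was 0.174 to 2681 kb away, with a median of 22.04 kb, and that of all protein-coding genes on a chromosome with peaks was 226 kb. In THP-1 the distances ran from 10.4 to 26101 kb, with a median of 1352 kb against 2387 kb for all protein-coding genes. With peaks of -log10 q of at least 5 alone, the U-937 median was 138 kb against 600.3 kb for all, and the THP-1 median 2100 kb against 3237 kb. Within 100 kb of the gene, 8 of 10 members had a U-937 summit, where 33.8% of protein-coding genes did. For THP-1 it was 3 of 10 (GPI, PFKL and ALDOA) against 6.44%. U-937 summits within 1 Mb numbered from 0 at PGK1 to 14 at ALDOA, with a median of 3.5 against 2 for all protein-coding genes. Gene density around the members was not matched in any of these shares, and its part in them was not tested.

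**Figure D3:**
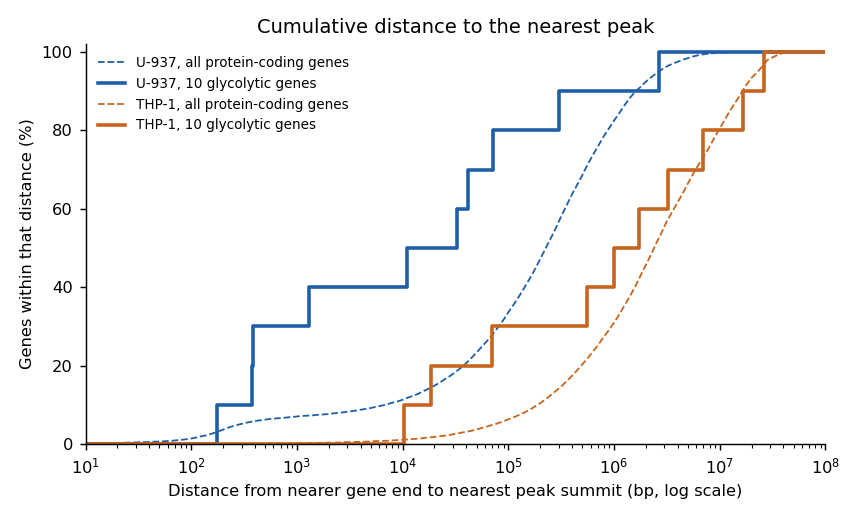
Share of genes (y axis, %) whose nearest peak summit lies within a given distance (x axis, bp, log scale), for the 10 glycolytic genes (solid steps) and all protein-coding genes with a distance (dashed), in U-937 (blue) and THP-1 (orange). At 1000 bp the U-937 steps stand at 3 of 10 genes and the dashed line at about 7.02%.

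In GPI, GAPDH and ENO1 the summit was upstream of the gene span, and in ALDOA it was upstream of an internal start. For GPI and GAPDH the annotated start was farther off, 5654 and 1122 bp from the summit. A summit just upstream of the span was usual among U-937 boundary peaks. Of the 1202 protein-coding genes with a boundary peak and a known strand, 95.5% had it nearer to the start of the span than to its end. Of those, 70.6% had the summit upstream. Widths were 206 to 364 bp, around the list's median of 238 bp. Folds ran from 5.73 to 7.02, and ranks from 760 to 1334 of 2272, in the middle part of the list. The median fold at GPI, GAPDH and ENO1 was 6.01, against 6.59 at the 1375 protein-coding genes with a boundary peak in U-937 and none in THP-1. The genes of that set with the closest fold were PRMT7 for GPI and LYL1 for GAPDH, both with the same deposited fold as the member, and ACAA1 for ENO1 (fold 6.84). Likeness here is the difference in fold within 1 list, over 2 lines.

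**Figure D4:**
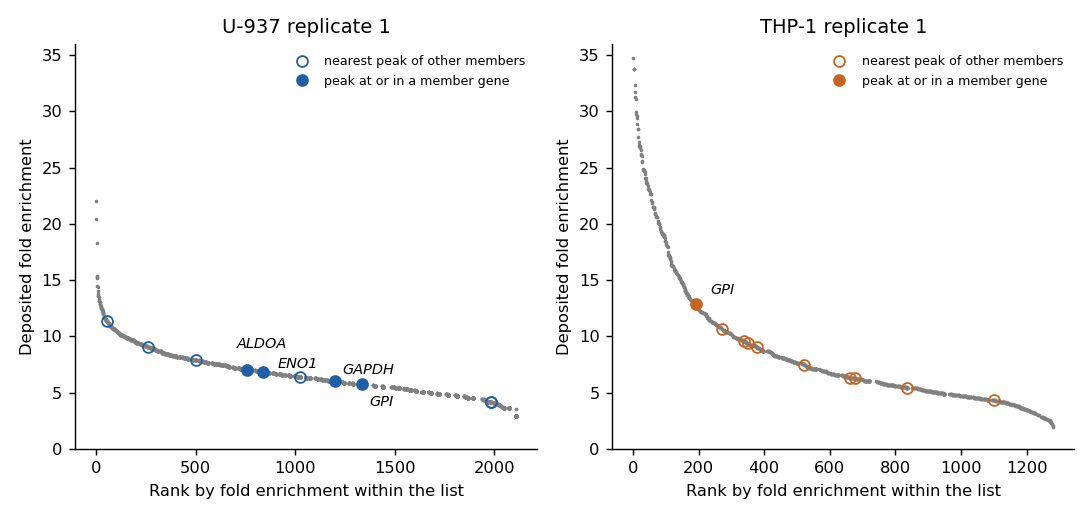
The authors' fold enrichment (y axis) of every peak on chromosomes against its rank within its own list (x axis), in U-937 (left) and THP-1 (right). Filled circles are peaks at or in a member gene and open circles the nearest peaks of the other members; the 4 filled U-937 circles lie at ranks 760 to 1334 and the filled THP-1 circle, in GPI, at rank 191.

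Short motifs were searched on both strands in the 20 promoter windows of the 10 genes. Of these, only the ENO1 and ALDOA windows printed above were touched by a U-937 peak, so this was not a search of the peaks. The forkhead core TGTTTAC and its form TGTTTGC were found in 0 of 20 windows, where 3.42% and 3.89% of all 35116 windows held them. Among the windows under U-937 peaks the shares were 1.69% and 2.43%. These letters are thus rare in such windows in general, and their absence from these says nothing about the factor. The GC box GGGCGG was in 12 of 20 windows, against 45.0% of all windows and 75.2% of those under a U-937 peak. It was found in a window of 9 of 10 genes, but the shares above are per window. Genes with several windows have more chances of a match. For GPI the table holds 1 window, whose start is 5654 bp from the U-937 summit. Neither that window nor the GAPDH window was touched by a peak, so the sequences at the GPI and GAPDH peaks were not searched. In the ALDOA sequence above the GC box occurs 5 times, 4 of them within the capitals, and in ENO1 once, outside them. The CCAAT box was in 6 of 20 windows, from HK1, HK2, ALDOA, PGK1 and PKM, against 34.6% of all windows, and the ALDOA match lay within the capitals.

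The E-box CACGTG, which MYC and related factors bind, was in 4 of 20 windows, 1 each of HK2, ALDOA, GAPDH and LDHA. Of all windows 7.26% held it, and of those under a U-937 peak 11.1%. The ALDOA match was in the window of the start at 30064497, which no peak touched. ACGTGC, a form of the hypoxia response element, which can overlap an E-box, was in 4 of 20 windows, from HK2, PGK1 and LDHA. Of all windows 6.89% held it, and of those under a U-937 peak 9.38%. In HK2 and in LDHA a match shared bases with an E-box, so the same letters were counted in both tallies. The CRE TGACGTCA (1.85% of all windows) and the NRF1-type palindrome (1.24%) were found at LDHA alone. None of HK2, PGK1 and LDHA, the members with a hypoxia-type match, had a peak at the gene. In the span or within 1000 bp, 9.98% of protein-coding genes had a U-937 peak and 1.09% a THP-1 peak. At such shares, no peak at these few genes says little about them. A match is a description of the letters only.

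The other genes of glucose use were 55, fixed as lists of isozymes and remaining steps, transporters, regulators, pyruvate dehydrogenase, gluconeogenesis and pentose phosphate genes. In U-937, 4 of 55 had a boundary peak (7.27%), close to the 7.02% of all protein-coding genes. In THP-1 0 of 55 did, where 0.221% of all protein-coding genes had one, so that count says little about them. With a -log10 q of at least 5 the U-937 count was 2 of 55 (3.64%, against 3.93% of all), and over the span or 1000 bp around it 7 of 55 (12.7%, against 9.98%). By list, the 4 with a boundary peak were 1 of 17 isozymes and remaining steps (LDHB), 2 of 13 regulators (PDK1 and MPC2) and 1 of 7 pentose phosphate genes (RPIA). The 6 transporters, 5 pyruvate dehydrogenase and 7 gluconeogenesis genes had no boundary peak. For the 55 genes the median distance to a U-937 summit was 172 kb, nearer to the 226 kb of all protein-coding genes than to the 22.04 kb of the core enzymes.

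PDK1, the kinase that turns off pyruvate dehydrogenase, had the strongest boundary peak of the 55, at 172555497 to 172556159 on chromosome 2 (fold 10.6, -log10 q 24.3, rank 95), and 3 U-937 peaks inside its span. The summit of that boundary peak also lay inside PDK1-AS1, a long non-coding RNA gene. RPIA, ribose phosphate isomerase, had a summit 35 bp into the gene (fold 7.64, -log10 q 7.09). A boundary of the long non-coding RNA gene LOC102724805 was within 1000 bp of it. MPC2, a subunit of the mitochondrial pyruvate carrier, had a summit 843 bp into the gene and 233 bp from an annotated start (fold 5.77, -log10 q 3.94), within DCAF6 too. Named after their values were seen, 3 further genes held a U-937 peak inside the span without a boundary peak. PFKFB4, which controls the level of an activator of phosphofructokinase, had a peak of fold 10.8 and rank 82, 6040 bp into the gene and 293 bp from an annotated start. SLC2A1, the GLUT1 glucose transporter gene, had a weak one (fold 4.06, rank 1999) 14258 bp into the gene, and TALDO1, transaldolase, one of fold 5.51.

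Other isozymes of the core enzymes were named after their values were seen. Neither HK3 (527 kb) nor HKDC1 (40.3 kb) had a U-937 summit at the gene. For phosphofructokinase, PFKM was 536 kb and PFKP 646 kb from a U-937 summit, farther than the 33.0 kb of PFKL. ALDOC was at 68.5 kb, ENO2 and ENO3 were at 62.4 and 10.5 kb, and PKLR was at 15.5 kb. TPI1 and PGAM1, the steps of the pathway outside the 10 genes, were at 15.2 and 133 kb. Counting isozymes, the steps with a U-937 peak at an annotated start or gene end were those of GPI, aldolase, GAPDH and enolase. Through LDHB, lactate dehydrogenase was another. By that rule 7.58% of protein-coding genes were called, and a step with several isozymes has more genes that could be called. No share for whole steps was computed, so this list is a description only.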

How the data were processed

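CUT&Tag libraries made with a FOXO3A antibody were analysed from 3 THP-1 and 2 U-937 samples, grouped by their titles. Per the submitters' processing notes, Bowtie2, Picard and hg38 were used. For peak caller, background and depth, nothing is stated in the sources used here. The authors deposited 1 peak list per library, read in the narrowPeak layout: for each peak a fold enrichment, which is a ratio, -log10 p, -log10 q and a score derived from these. Fold was used only within its list, and ranks count the whole list, with tied peaks given the best rank.

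Positions are hg38, counted from 1. Gene spans came from the RefSeq table of GRCh38.p14 (831 entries on other scaffolds or out of order were left out), and strands, starts and sequences from its promoter table. All 10 genes matched, with 20 promoter windows. Distances run from summit to the nearer span end. Peaks on contigs were not placed. Python 3.11.15 and pandas 2.3.3 were used, and the distance procedure was tested on simulated data. No motif or gene list was tested. The genes and lists were chosen with earlier results of these data known. The rule for named genes took all 10 members, pathway genes with a boundary peak, genes sharing a member's peak and the genes closest in fold. Other pathway genes and neighbours were named after their values were seen. Some items of the lists are not reported here. Alternatives covered the window, peak position, -log10 q, start only and whole span; uses of every annotated start and of promoter windows were added after seeing the data.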

Additional observations from a re-analysis of the deposited data

Results flagged for a closer look

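In THP-1 replicate 1, 245 peaks were placed on contigs that are no part of chromosomes 1 to 22, X or Y, and no comparison with the genes used them. Whether any of them is at a copy of a glycolytic gene was not tested.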

How the results depend on the processing

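The U-937 count of 3 of 10 genes (7.02% of protein-coding genes) was 3 within 500 bp (6.23%), 4 within 3000 bp (8.22%) and 4 within 10000 bp (11.3%). It was 3 for any base of the peak (7.17%), 3 for the start only (7.25% of genes with a promoter window) and 4 for the whole span (9.98%). It was 4 with every annotated start (7.58%) and 2 by contact with a promoter window (6.93% of genes with a window). With -log10 q of at least 5 it was 1 (ENO1), against 3.93% of protein-coding genes, because the GPI and GAPDH peaks have lower values. The THP-1 count of 0 became 1 (GPI) when the whole span was counted, against 1.09%. The 4 other pathway genes in U-937 became 2 of 55 with -log10 q of at least 5 (3.64%, all genes 3.93%) and 7 over the whole span (12.7%, all genes 9.98%). The U-937 median distance of 22.04 kb was 21.9 kb to the nearest edge and 138 kb with -log10 q of at least 5, and that of THP-1 was 1352 kb to the edge and 2100 kb with the threshold, where fewer peaks remain. The median rank of the GPI, GAPDH and ENO1 peaks was 1196 by -log10 q in place of 1198. No paired analysis was possible because all libraries but the first of each line have empty lists, and leaving out a replicate was likewise not run. Limits from depth are unknown, and a gene with no listed peak is not shown to be unbound.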

Other observations

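Processed pseudogenes of the core enzymes carried no peak. The gene table lists 85 by name, 65 of them copies of GAPDH, and 0 touched a peak in either line, where 0.214% of 16860 pseudogenes touched a U-937 peak and 0.255% a THP-1 peak. At shares this low, 0 of 85 does not set these copies apart. They were chosen after the data were seen.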
